A study of Mus musculus with 18 samples.

Results

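Microglia sorted from the brain of mouse embryos at embryonic day 18.5 (E18.5) are described here. The cells were taken as the wells of the 6 E18.5 brain libraries that received 1 sorted cell and held at least 300 unique molecular identifiers (UMIs, tags that mark single transcripts) on gene rows. This left 992 of 1140 wells, out of 3012 cells in the whole series, and no measured gene was used to choose them. The other cells came from yolk sac at embryonic day 12.5 (E12.5, 671 cells in 4 libraries), from brain at E12.5 (718 cells in 4 libraries) and from adult brain (631 cells in 4 libraries). All mice were untreated C57BL/6J animals with the CX3CR1-GFP+ reporter, in which green fluorescent protein is read from the locus of the fractalkine receptor. E18.5 and adult cells were sorted as CD45int CD11Bint reporter-positive cells, and both E12.5 groups as CD45+ CD11B+ reporter-positive cells, so age and gate cannot be told apart between E18.5 and E12.5. Any other cell type with the reporter and these surface markers can pass the gate. The series follows these cells from the embryo to the adult with MARS-seq, which sorts single cells into plates and counts the 3' ends of polyadenylated RNA.

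Microglia are the resident macrophages of the brain. They descend from yolk sac precursors that enter the neural tube early, divide there, and live on colony-stimulating factor signals through the receptor CSF1R. Before birth they clear dying cells, line axon tracts and secrete chemokines and complement, and their adult set of "homeostatic" genes is built up step by step with the help of TGF-beta and the transcription factor Sall1.

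The 6 E18.5 libraries held 155 to 186 cells and 143876 to 217647 UMIs each, with a median of 983 UMIs and 624.5 genes per cell. The median was 1511 UMIs per cell in yolk sac, 1725 in E12.5 brain and 521 in adult brain. The 12 empty wells of the E18.5 libraries held a median of 19.5 and at most 39 UMIs. Libraries 1 and 2 came from plate 5, libraries 3 and 4 from plate 6, and libraries 5 and 6 from plate 7, all in 1 sequencing batch that the adult libraries and yolk sac libraries 3 and 4 shared and no E12.5 brain library did. The well annotation gives 1 subject number for each age, so the p-values below measure the spread between libraries, which may be technical. No E18.5 cell shared its pool and cell barcode with a cell of another library.

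Levels are UMI counts scaled to the same total in every library (CPM), and fold changes are log2 values of E18.5 brain over the other group with their standard errors, from edgeR's quasi-likelihood test with adjusted p under 0.05. Of 4883 genes tested, 890 (18.2%) were higher and 917 (18.8%) lower in E18.5 brain than in yolk sac. Against E12.5 brain 543 (11.1%) were higher and 652 (13.4%) lower, and against adult brain 547 (11.2%) were higher and 503 (10.3%) lower. The 3 comparisons share the 6 E18.5 libraries. Every E18.5 library stood above every library of the other group for 13.4% of the genes against yolk sac, 8.11% against E12.5 brain and 9.13% against adult brain, and below it for 12.8%, 10.6% and 7.7% of the genes in the same order of groups.

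Genes of the gate and of the lineage were read in E18.5 cells. Cells were sorted on CD45, CD11B and the Cx3cr1 reporter. Reading the genes of the gate therefore follows from the sort and does not test the label of microglia. Itgam, which encodes CD11B, averaged 850 ± 195 CPM in E18.5 brain (SD, n = 6), against 223 in yolk sac, 382 in E12.5 brain and 676 in adult brain. Ptprc, which encodes CD45, averaged 209 ± 69.4 CPM in E18.5 brain, 189 in yolk sac, 187 in E12.5 brain and 60.6 in adult brain. Cx3cr1 averaged 311 ± 80.2, 83.8, 162 and 325 CPM in the same groups. Nearly every cell held a UMI of the homeostatic microglia list, summed over its 25 gene rows: thinned to 500 UMIs, the median cell held 26 UMIs of the list, the quartiles were 21 and 32, and 0.110% of the 911 cells held none. Single members can be scarcer, and Sall1 had a UMI in 18.4% of these cells. Complement C1qb had a UMI in 99.3% of these thinned cells and Csf1r in 97.3%. Shares of cells in the other groups are not given here. Yolk sac libraries also held 11023 to 12422 CPM of the list and averaged 4547 CPM of C1qb and 3346 of Csf1r. Reading these genes is therefore not particular to E18.5 microglia.

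Genes of other cell types were also read in the E18.5 libraries, mostly at low levels. Of the granulocyte list 7 of 12 rows had a UMI, summing to 230 to 1272 CPM in E18.5 brain, 429 to 1542 CPM for yolk sac, 78.9 to 158 CPM for E12.5 brain and 2495 to 9439 CPM for adult brain. Mpo, the peroxidase of granule precursors, had 320 UMIs in 220 E18.5 cells with at most 5 in a cell, while S100a9 and Ngp of mature neutrophils had 0. In E18.5 libraries 1 to 6 Mpo had 57, 4, 52, 28, 4 and 175 UMIs. Erythroid genes summed to 0 to 3081 CPM in E18.5 brain, the highest in library 6, against 281 to 5287 CPM for yolk sac, 16.8 to 591 CPM for E12.5 brain and 20.1 to 134 CPM for adult brain. Neuron genes summed to 10.6 to 179 CPM in E18.5 brain, 22.2 to 65.3 CPM for yolk sac, 48.7 to 159 CPM for E12.5 brain and 0 to 30.2 CPM for adult brain, and 11 of the 14 genes of endothelium and mural cells had 0 UMIs at E18.5. Of the lymphocyte list 3 of 12 rows had a UMI, and nearly all came from Cd79b, a chain of the B cell receptor complex, which averaged 230 ± 74.0 CPM in E18.5 brain, 151 ± 36.6 in yolk sac, 106 ± 25.9 in E12.5 brain and 35.2 ± 22.0 in adult brain. It passed as higher than in E12.5 brain and adult brain (log2 1.08 and 2.73, adjusted p = 0.000937 and 6e-07, edgeR). Of the platelet list 2 of 7 rows had a UMI, and Gp9, a platelet glycoprotein, averaged 54.6 ± 36.0 CPM in E18.5 brain, 10.8 in yolk sac, 3.26 in E12.5 brain and 284 ± 51.0 in adult brain (log2 2.27, 4.40 and -2.38, adjusted p = 0.00475, 0.000105 and 0.000249, edgeR). Monocyte genes summed to 5.53 to 212 CPM in E18.5 libraries, with 5 of 8 rows found. The sums were 14.8 to 74.2 CPM for yolk sac, 17.5 to 38.6 CPM for E12.5 brain and 0 to 1881 CPM for adult brain. The 1 monocyte row tested passed in no comparison. T cell receptor component Cd3e, monocyte receptor Ccr2 and platelet chemokine Ppbp, defining members of these lists, had 0 UMIs at E18.5, and a count of 0 allows up to 2.82 CPM over the group. Cd79b or Gp9 without the other members of its list does not show that B cells or platelets were present. The part of other cell types in the results was not tested.

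The most abundant transcripts of E18.5 microglia served lipid carriage, lysosomal protein breakdown, complement and growth factor signalling. Apoe, the apolipoprotein that carries cholesterol between brain cells, stood first with 19429 ± 2169 CPM (SD, n = 6), or 1.92% of all UMIs. It was followed by cytoskeletal Actb (18966 ± 1386), the protease inhibitor Cst3 (14272 ± 897) and the aspartyl protease Ctsd (12614 ± 939). The 3 chains of C1q, which starts the classical complement cascade, reached 9903 ± 365 CPM for C1qb, 8865 ± 611 for C1qc and 7926 ± 1074 for C1qa. Lgmn, an asparagine-specific lysosomal protease, had 8074 ± 887, Csf1r 7967 ± 407, the row of the lysosomal membrane protein Laptm5 7856 ± 571 and the ferritin light chain Ftl1 7080 ± 613 CPM. The selenium carrier Sepp1, the Fc receptor-like Fcrls, the cysteine protease Ctss and the growth factor precursor Grn closed the first 15 with 5316 ± 273, 5198 ± 449, 4500 ± 1408 and 4339 ± 236 CPM. These 15 rows held 14.2% of all UMIs and the first 100 rows 31.5%, while 457 rows made up 50% and 11765 rows had at least 1 UMI.

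The abundant genes took different places relative to the other groups. Apoe ran from 16136 over a median of 19218 to 22540 CPM in E18.5 libraries, against 874, 1736, 520 and 2039 CPM in adult libraries. The groups did not overlap, and the difference was 3.89 ± 0.31 on the log2 scale (adjusted p = 2.03e-07, edgeR). Yolk sac averaged 21880 and E12.5 brain 17155 CPM, which did not pass the test against E18.5 brain (log2 -0.22 and 0.17, adjusted p = 0.538 and 0.676, edgeR). Cst3 was lower in E18.5 brain than in adult brain, at 14272 ± 897 against 44609 ± 5772 CPM (log2 -1.68, adjusted p = 8.08e-16, edgeR), and higher than in the E12.5 groups. Csf1r and C1qa had this order too, at 7967 and 7926 CPM in E18.5 brain against 11294 and 13099 CPM in adult brain (log2 -0.53 and -0.76). Ftl1 had the reverse order: it averaged 7080 ± 613 CPM in E18.5 brain, 18795 in yolk sac, 13019 in E12.5 brain and 1995 ± 81.2 in adult brain. Sepp1 was 1.69 log2 units higher in E18.5 than in E12.5 brain (5316 against 1644 CPM, adjusted p = 2.08e-12, edgeR). The C1qc difference from adult brain (log2 -0.32) passed only narrowly, with adjusted p of 0.0510 to 0.0779 without any 1 of 7 libraries, E18.5 libraries 1, 2 and 4 or any adult one.

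The 5 markers given for these cells fell into 3 kinds. Crybb1 and Ctsl were higher in E18.5 brain than in each other group, Lag3 and Ltc4s were higher than in both E12.5 groups but not than in adult brain, and Ccl2 was higher than in the other brain groups but not than in yolk sac. Because they were named as markers with these data known, their differences are a description of the group.

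Crybb1, a crystallin of the eye lens that microglia also read, had 2297 to 4459 CPM in E18.5 libraries with a median of 3114. It had 96.2, 116, 159 and 115 CPM in yolk sac, 346, 376, 518 and 700 in E12.5 brain, and 844, 1000, 987 and 724 in adult brain. The E18.5 libraries lay above all others, by 4.62 ± 0.25 on the log2 scale over yolk sac (adjusted p = 1.21e-14), 2.68 ± 0.21 over E12.5 brain (4.39e-10) and 1.77 ± 0.21 over adult brain (4.7e-07, edgeR). Ctsl, the lysosomal cysteine protease cathepsin L, had 1720 to 3405 CPM in E18.5 libraries with a median of 2977. It had 529, 613, 589 and 523 CPM in yolk sac, 941, 1045, 420 and 324 in E12.5 brain, and 533, 187, 114 and 335 in adult brain. No library of another group reached an E18.5 library, and the differences were 2.25 ± 0.37, 2.01 ± 0.36 and 3.21 ± 0.42 log2 units over yolk sac, E12.5 brain and adult brain (adjusted p = 0.000169, 0.000771 and 5.11e-05, edgeR).

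Lag3, an inhibitory receptor of the CD4 family, had 423 to 708 CPM in E18.5 libraries with a median of 502, against 11.1, 14.5, 38.8 and 11.1 in yolk sac, 60.7, 46.8, 38.6 and 65.7 in E12.5 brain, and 583, 857, 675 and 751 in adult brain. E18.5 and adult libraries overlapped (log2 -0.45 ± 0.19, adjusted p = 0.0919, edgeR), while yolk sac and E12.5 brain lay far below (4.70 ± 0.28 and 3.32 ± 0.23 log2 units, adjusted p = 1.16e-17 and 1.49e-14). Ltc4s, which makes leukotriene C4, averaged 992 ± 102 CPM in E18.5 brain, 115 ± 29.8 in yolk sac, 165 ± 45.6 in E12.5 brain and 1026 ± 84.2 in adult brain (log2 3.06, 2.61 and -0.08, adjusted p = 1.51e-16, 2.54e-14 and 0.788, edgeR). The sign of its difference from adult brain turned under other settings, for example to 0.10 without the filter on low counts. Ccl2, a chemokine that draws monocytes, had 34.4 to 139 CPM in E18.5 libraries with a median of 96.4, against 66.6, 87.1, 184 and 96.4 in yolk sac, 14.2, 1.87, 0 and 0 in E12.5 brain, and 20.1, 11.0, 0 and 13.4 in adult brain. E18.5 overlapped yolk sac (log2 -0.32 ± 0.35, adjusted p = 0.501, and 0.08 without yolk sac library 3) and lay above both other brain groups (3.98 ± 0.53 and 2.93 ± 0.68, adjusted p = 4.01e-07 and 0.00135, edgeR). The adult value rests on 4 UMIs.

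**Figure D1:**
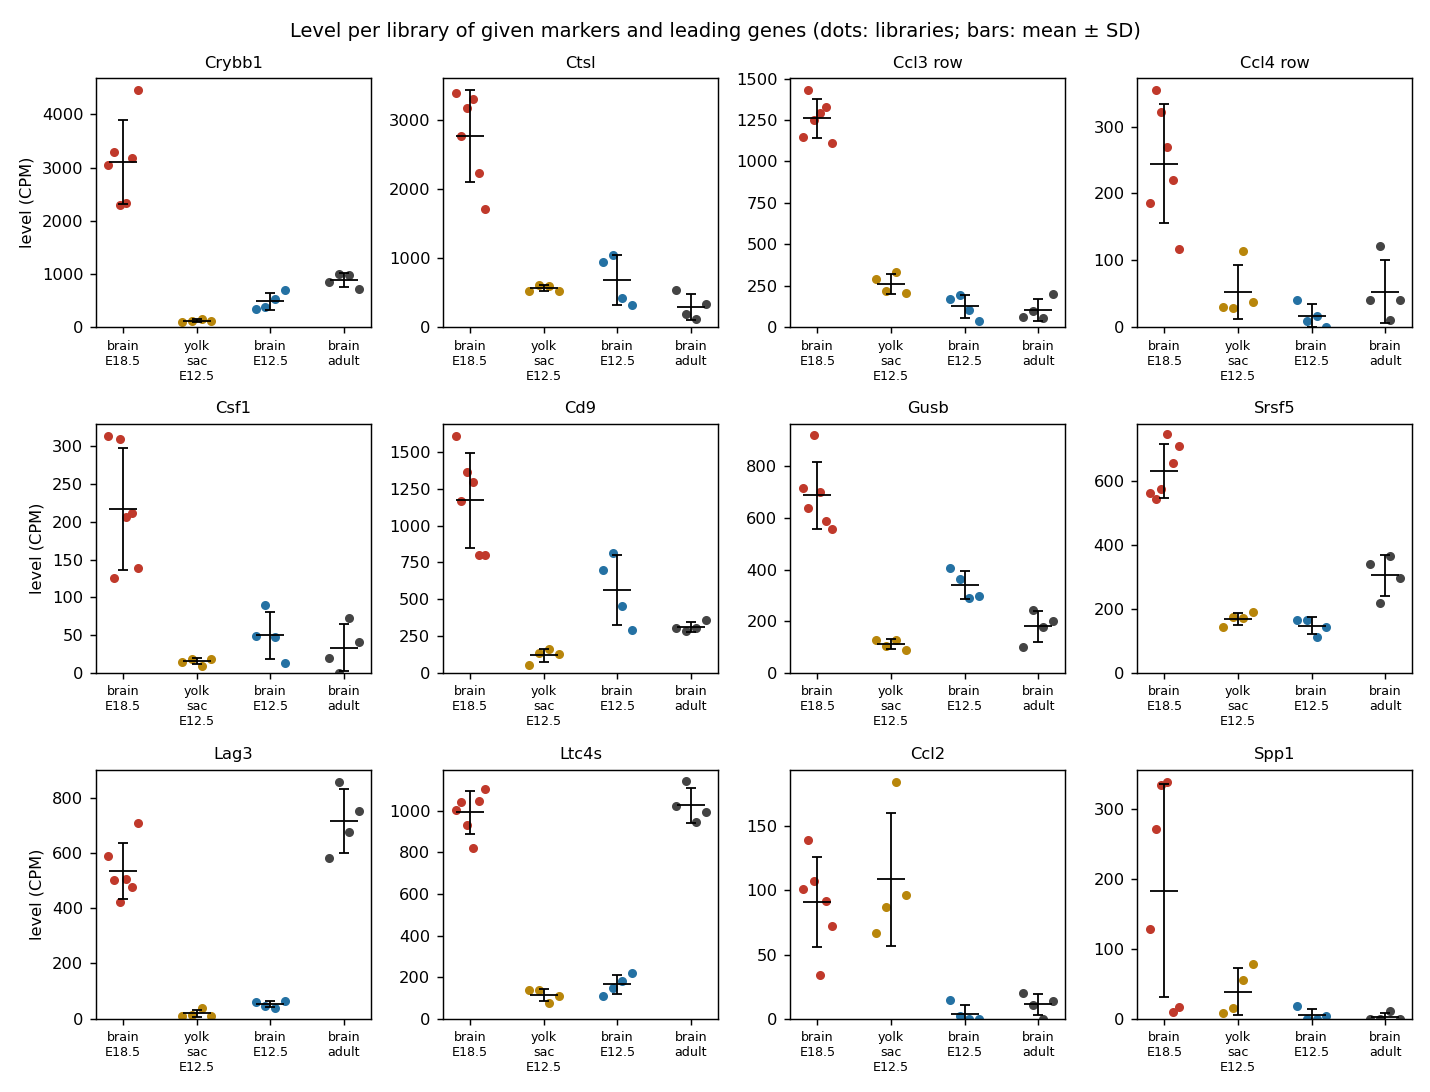
Level in CPM (y axis, linear from 0) of 12 genes in each library, one dot per library, with bars for mean ± SD, for brain E18.5 (n = 6), yolk sac E12.5, brain E12.5 and brain adult (n = 4 each). Crybb1, Ctsl, the Ccl3 row, Csf1, Gusb and Srsf5 lie above every library of the other groups, Lag3 and Ltc4s overlap brain adult, Ccl2 overlaps yolk sac, and Spp1 is near 0 in 2 of the 6 brain E18.5 libraries.

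In all, 43 genes (0.881% of those tested) were higher in E18.5 brain than in each of the 3 other groups, and 15 (0.307%) were lower. Of the 43 genes, 20 differed by at least 1 log2 unit in all 3 comparisons and 5 by at least 2, with a median of 0.98 for the smallest of the 3 differences. For 19 of the 43 every E18.5 library lay above every library of all other groups. All 43 kept their direction with sequencing batch in the fit, where 37 still passed against yolk sac and 12 against E12.5 brain. All 43 also passed against adult brain, but E18.5 and adult libraries share a batch, so the batch term does not test that difference. The batches of E12.5 brain are not those of E18.5. That fit links them only through yolk sac libraries 1 and 2, which share a batch with E12.5 brain libraries 3 and 4. It is therefore not a direct comparison within a batch. When each of the 18 libraries was left out in turn, 22 of the 43 genes and 1 of the 15 passed every time. With counts summed per plate, 19 genes were higher and 2 lower in E18.5 brain than in all other groups.

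The promoter windows of 4 genes of this set are shown first: Csf1, Ctsl and Crybb1, whose smallest difference of the 3 comparisons was the largest among the genes with a window, and Traf3ip3, whose window held PU.1 letters on both strands. Windows run from 250 bases before to 50 bases after the RefSeq start of the gene in build GRCm38.p6, written 5' to 3' on the strand of the gene, and 15 of the 20 genes named by the rule for this set had one. Capitals mark matches to 3 motifs searched on both strands: CACGTG, the E-box read by the lysosomal regulator TFEB and its relatives; TGANTCA, read by AP-1; and GAGGAAGT, read by PU.1, the factor that sets up macrophages.
Csf1, chr3:107760420-107760719, minus strand: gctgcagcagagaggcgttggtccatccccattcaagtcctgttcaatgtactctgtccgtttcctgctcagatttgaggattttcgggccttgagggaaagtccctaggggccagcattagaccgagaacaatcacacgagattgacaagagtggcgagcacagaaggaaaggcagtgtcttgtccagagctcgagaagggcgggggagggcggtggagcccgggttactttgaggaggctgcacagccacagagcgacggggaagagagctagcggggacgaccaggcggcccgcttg
Ctsl, chr13:64370471-64370770, minus strand: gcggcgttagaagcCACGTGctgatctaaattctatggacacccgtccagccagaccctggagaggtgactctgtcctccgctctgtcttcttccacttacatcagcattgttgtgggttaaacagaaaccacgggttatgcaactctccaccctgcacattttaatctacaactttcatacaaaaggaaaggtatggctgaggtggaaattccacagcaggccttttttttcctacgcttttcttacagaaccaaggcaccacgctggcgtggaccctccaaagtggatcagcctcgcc
Crybb1, chr5:112255570-112255869, plus strand: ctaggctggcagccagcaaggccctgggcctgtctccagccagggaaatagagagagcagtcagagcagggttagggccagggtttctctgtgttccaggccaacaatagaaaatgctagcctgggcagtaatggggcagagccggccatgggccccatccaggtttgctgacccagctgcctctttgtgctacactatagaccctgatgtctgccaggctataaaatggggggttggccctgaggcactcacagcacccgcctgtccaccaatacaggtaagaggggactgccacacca
Traf3ip3, chr1:193201497-193201796, minus strand: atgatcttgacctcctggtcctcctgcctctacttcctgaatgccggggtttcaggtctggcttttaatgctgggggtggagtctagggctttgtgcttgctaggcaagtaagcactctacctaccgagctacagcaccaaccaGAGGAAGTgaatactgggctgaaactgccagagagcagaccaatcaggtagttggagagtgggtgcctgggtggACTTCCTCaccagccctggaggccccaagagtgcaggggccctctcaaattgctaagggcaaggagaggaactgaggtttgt
The E-box stood in the windows of Ctsl and Rmnd1, 2 of the 15, and in 7.24% of all 27025 windows of this length. AP-1 letters stood in those of Hnrnpa1 and Itga9 (7.93% of all windows) and PU.1 letters in those of Gusb and, on both strands, Traf3ip3 (3.28% of all windows). The windows of Csf1 and Crybb1 held none of the 3 strings. Such matches describe the sequence and do not show a bound site.

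The set held secreted signals. Chemokines Ccl3, Ccl4, Ccl5 and Ccl6, which call in myeloid cells and lymphocytes, and the growth factor Csf1, a ligand of CSF1R itself, were all higher in E18.5 brain than in each other group. The Ccl3 row, which joins Ccl3 with a transcript entry, had 1112 to 1432 CPM in E18.5 libraries with a median of 1273, against 289, 218, 333 and 208 in yolk sac, 172, 191, 103 and 39.4 in E12.5 brain, and 60.3, 98.9, 52.0 and 201 in adult brain. The E18.5 libraries were close to each other and far above all others, by 2.22 ± 0.27, 3.24 ± 0.28 and 3.64 ± 0.34 log2 units over yolk sac, E12.5 brain and adult brain (adjusted p = 6.73e-07, 2.04e-08 and 6.28e-08, edgeR). With sequencing batch in the fit the difference from E12.5 brain was 3.98 log2 units (adjusted p = 1e-09).

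The Ccl4 row had 116 to 354 CPM in E18.5 libraries with a median of 245, against 29.6, 29.0, 113 and 37.1 in yolk sac, 40.5, 9.36, 17.1 and 0 in E12.5 brain, and 40.2, 121, 10.4 and 40.2 in adult brain. E18.5 library 6 was the lowest of its group and lay below adult library 2. The differences were 2.13 ± 0.50, 3.66 ± 0.57 and 2.16 ± 0.63 log2 units (adjusted p = 0.00257, 0.000124 and 0.0193, edgeR), and the adult one no longer passed without adult library 1, 3 or 4 (adjusted p = 0.0564 to 0.0673). With batch in the fit the Ccl4 row did not pass against E12.5 brain (3.30, adjusted p = 0.179, edgeR). Ccl6 averaged 520 ± 60.6 CPM in E18.5 brain, 366 ± 30.6 in yolk sac, 186 ± 22.1 in E12.5 brain and 326 ± 86.2 in adult brain (log2 0.46, 1.48 and 0.65, adjusted p = 0.0245, 2.13e-08 and 0.00901, edgeR). Its call against yolk sac was lost without E18.5 library 4 or yolk sac library 3 (adjusted p = 0.0541 to 0.0616) and its call against adult brain without adult library 3 (0.0593).

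Ccl5 was rare and uneven. It had 63.8, 97.3, 56.8, 68.8, 59.7 and 0 CPM in E18.5 libraries 1 to 6, from 60 UMIs in 19 cells, and 73.3% of these UMIs lay in 5 cells. Adult brain had 0 UMIs, so that E18.5 brain was at least 6.80-fold higher if adult brain is set at 3 UMIs over the group, the floor used, and E12.5 brain had 3 UMIs, for a ratio of 28.0 (exact 95% interval 9.14 to 140, counting error only). Against yolk sac, with 7.40, 7.26, 0 and 37.1 CPM, the difference of 2.08 ± 0.78 (adjusted p = 0.0404, edgeR) was lost without any 1 of 8 libraries, E18.5 libraries 1 to 5 or yolk sac libraries 1 to 3 (0.0585 to 0.107). With batch in the fit Ccl5 did not pass against E12.5 brain (1.77, adjusted p = 0.695) or yolk sac (1.62, adjusted p = 0.169, edgeR).

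Csf1 had 125 to 313 CPM in E18.5 libraries with a median of 209, against 14.8, 18.1, 9.71 and 18.5 in yolk sac, 48.6, 89.9, 47.1 and 13.1 in E12.5 brain, and 20.1, 0, 72.7 and 40.2 in adult brain. No libraries overlapped, and the differences were 3.75 ± 0.44, 2.02 ± 0.35 and 2.66 ± 0.49 log2 units (adjusted p = 1.65e-08, 4.21e-05 and 0.00012, edgeR). With sequencing batch in the fit the difference from E12.5 brain was 3.02 and did not pass (adjusted p = 0.0651). The row that joins Ang and Rnase4, both secreted ribonucleases, averaged 1398 ± 279 CPM in E18.5 brain, 416 in yolk sac, 672 in E12.5 brain and 383 in adult brain.

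The set also held lysosomal genes. Beside Ctsl, the cysteine protease Ctsb, the tripeptidyl peptidase Tpp1, the beta-glucuronidase Gusb, the mannosidase Man2b1, the sulfatase Arsb, the progranulin gene Grn, the membrane protein Cd63 and the proton pump partner Atp6ap2 were higher in E18.5 brain than in all 3 other groups. Ctsb had 570 to 871 CPM in E18.5 libraries with a median of 660, against 107, 72.6, 391 and 389 in yolk sac, 235, 232, 85.7 and 21.9 in E12.5 brain, and 241, 165, 156 and 93.9 in adult brain. Both E12.5 groups split by plate, and within each of them plate and sequencing batch were the same split. In E12.5 brain these plates also differed in depth, at medians of 2509 and 2513 against 1217 and 1206 UMIs per cell. Plate, batch and depth therefore cannot be told apart there. All 3 other groups lay below E18.5 (log2 1.46 ± 0.49, 2.16 ± 0.51 and 2.00 ± 0.59, adjusted p = 0.0305, 0.00589 and 0.0242, edgeR). With counts summed per plate none of the 3 passed (adjusted p = 0.275, 0.176 and 0.231, edgeR), and with batch in the fit the yolk sac difference was 0.77 log2 units. The call against yolk sac was lost without E18.5 library 3 or yolk sac library 1 or 2 (adjusted p = 0.0508 to 0.0823), and the call against adult brain without adult library 2, 3 or 4 (0.0582 to 0.0677).

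Tpp1 had 343 to 722 CPM in E18.5 libraries with a median of 483, against 152, 174, 246 and 182 in yolk sac, 307, 270, 137 and 140 in E12.5 brain, and 241, 209, 301 and 215 in adult brain (log2 1.40 ± 0.22, 1.23 ± 0.21 and 1.06 ± 0.24, adjusted p = 1.34e-06, 2.07e-05 and 0.000973, edgeR). Gusb had 559 to 921 CPM in E18.5 libraries with a median of 669, against 126, 105, 126 and 89.0 in yolk sac, 407, 363, 291 and 298 in E12.5 brain, and 101, 242, 177 and 201 in adult brain (log2 2.57 ± 0.20, 1.00 ± 0.18 and 1.91 ± 0.22, adjusted p = 8.06e-14, 3.69e-05 and 8.24e-09, edgeR). Neither gene overlapped any other group. In E12.5 brain, libraries 1 and 2 of plate 1 were higher than libraries 3 and 4 of plate 2 for Ctsl, Ctsb, Tpp1, Gusb and Atp6ap2, and the part of plate or sequencing batch in the difference from E18.5 was not tested beyond the fit with batch, in which Ctsl (2.89), Ctsb (1.49), Tpp1 (1.45) and Gusb (1.26) still passed and Atp6ap2 (1.66, adjusted p = 0.106, edgeR) did not. Man2b1 (0.28, adjusted p = 0.511) and Cd63 (0.91, adjusted p = 0.0690, edgeR) also did not pass against E12.5 brain in that fit.

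Of the other lysosomal genes, Man2b1, Grn and Cd63 differed by less. Man2b1 was nearly constant over the E18.5 libraries (1516 to 1628 CPM, 1584 ± 40.4) and averaged 914 in yolk sac, 1010 in E12.5 brain and 1178 in adult brain. Its log2 difference from adult brain of 0.40 (adjusted p = 0.0354, edgeR) was lost without E18.5 library 4 or adult library 2 or 3 (0.0553 to 0.129). Grn averaged 4339 ± 236 CPM in E18.5 brain, 3239 ± 75.6 in yolk sac, 2506 ± 191 in E12.5 brain and 2674 ± 145 in adult brain, with log2 differences of 0.38, 0.78 and 0.67 (adjusted p = 0.00499, 6.02e-07 and 1.48e-05, edgeR) and no overlap. Cd63 averaged 601 ± 92.9 CPM in E18.5 brain, 240 in yolk sac, 371 in E12.5 brain and 323 in adult brain, also with no overlap. Arsb averaged 541 ± 121 CPM in E18.5 brain, 17.9 in yolk sac, 302 in E12.5 brain and 312 in adult brain (log2 4.84, 0.83 and 0.75). Its call against adult brain was lost without adult library 1 (adjusted p = 0.0643, edgeR). Atp6ap2 averaged 177 ± 63.4 CPM in E18.5 brain, 47.0 in yolk sac, 83.8 in E12.5 brain and 68.5 in adult brain (log2 1.85, 0.98 and 1.31).

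Membrane and lipid genes were next. The tetraspanin Cd9 had 799 to 1610 CPM in E18.5 libraries with a median of 1232, against 51.8, 138, 159 and 126 in yolk sac, 700, 812, 454 and 289 in E12.5 brain, and 302, 286, 301 and 362 in adult brain. E18.5 libraries 5 and 6 of plate 7 overlapped E12.5 brain library 2 (log2 3.25 ± 0.31, 1.04 ± 0.26 and 1.88 ± 0.31, adjusted p = 7.26e-08, 0.00674 and 0.000173, edgeR), and with batch in the fit the difference from E12.5 brain was 1.02 (adjusted p = 0.322). Scd2, a desaturase of fatty acid synthesis, averaged 327 ± 67.3 CPM in E18.5 brain, 37.7 ± 20.6 in yolk sac, 178 ± 70.6 in E12.5 brain and 41.1 ± 13.8 in adult brain (log2 3.04, 0.84 and 2.93, adjusted p = 5.81e-11, 0.00844 and 8.65e-08, edgeR). The difference from E12.5 brain was 0.12 (adjusted p = 0.957) with batch in the fit. Fads1, a desaturase of polyunsaturated fatty acids, averaged 192 ± 34.9 CPM in E18.5 brain, 114 in yolk sac, 106 in E12.5 brain and 81.3 in adult brain, and no libraries overlapped; its call against yolk sac was lost without yolk sac library 2 (adjusted p = 0.0510, edgeR). With batch in the fit Fads1 did not pass against E12.5 brain (0.48, adjusted p = 0.621) or yolk sac (0.52, adjusted p = 0.128, edgeR). Itga9, an integrin chain, averaged 168 ± 36.7 CPM in E18.5 brain, 66.6 in yolk sac, 81.7 in E12.5 brain and 88.4 in adult brain, with the last call lost without E18.5 library 5 or adult library 2 or 3 (0.0610 to 0.177). With batch in the fit Itga9 did not pass against E12.5 brain (1.02, adjusted p = 0.308, edgeR).

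Histone genes and regulators of RNA and chromatin were also in the set. The more abundant row of Hist1h2be and Hist1h1e was not in it. That row averaged 791 ± 164 CPM in E18.5 brain, 346 in yolk sac, 380 in E12.5 brain and 1088 ± 203 in adult brain. Hist1h2ae averaged 269 ± 81.5 CPM in E18.5 brain, 101 ± 33.4 in yolk sac, 108 ± 21.0 in E12.5 brain and 121 ± 36.6 in adult brain (log2 1.35, 1.33 and 1.13, adjusted p = 3.94e-05, 9.16e-05 and 0.00449, edgeR). Linker histone Hist1h1a averaged 202 ± 61.2, 90.6, 102 and 51.3 CPM in the same groups (log2 1.11, 1.01 and 1.91). Hist1h2an averaged 68.3 ± 33.4 CPM in E18.5 brain, 28.6 in yolk sac, 26.7 in E12.5 brain and 18.9 in adult brain, and each of its calls was lost without some library, E18.5 library 3 or 6 in every comparison (adjusted p = 0.0522 to 0.155, edgeR, over all such libraries). With batch in the fit Hist1h2ae (0.96), Hist1h1a (0.71) and Hist1h2an (2.34) did not pass against E12.5 brain (adjusted p = 0.250, 0.505 and 0.126, edgeR). These replication-dependent histone genes are near copies of each other, so that the gene a read came from is uncertain. The splicing factor Srsf5 had 542 to 745 CPM in E18.5 libraries with a median of 616, against 144, 174, 171 and 189 in yolk sac, 166, 167, 111 and 144 in E12.5 brain, and 342, 220, 364 and 295 in adult brain. No libraries overlapped (log2 1.85 ± 0.18, 2.08 ± 0.18 and 1.02 ± 0.19, adjusted p = 2.67e-11, 6.09e-12 and 6.78e-05, edgeR). The RNA-binding Hnrnpa1 averaged 94.2 ± 41.2 CPM in E18.5 brain, 37.0 in yolk sac, 30.7 in E12.5 brain and 23.4 in adult brain, and the histone methyltransferase Setd2 176 ± 53.9, 88.0, 89.8 and 46.6 CPM. The chromatin remodeller Chd8 averaged 161 ± 41.7, 65.4, 77.5 and 72.6 CPM in these groups. Its call against E12.5 brain was lost without E12.5 brain library 4 (adjusted p = 0.0540, edgeR). The adult call of Chd8 was lost without E18.5 library 1 or adult library 1 or 2 (0.0663 to 0.139, edgeR). With batch in the fit Hnrnpa1 (1.57), Setd2 (1.35) and Chd8 (0.99) did not pass against E12.5 brain (adjusted p = 0.265, 0.121 and 0.393, edgeR).

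The remaining named genes of the set were of mixed roles. Traf3ip3, a partner of the adaptor TRAF3, had 132 to 234 CPM in E18.5 libraries with a median of 165, and averaged 71.2 ± 12.7 in yolk sac, 84.7 ± 14.2 in E12.5 brain and 61.7 ± 16.7 in adult brain, without overlap (log2 1.23, 1.02 and 1.46, adjusted p = 9.42e-05, 0.00116 and 0.000559, edgeR). With batch in the fit Traf3ip3 did not pass against E12.5 brain (0.77, adjusted p = 0.436, edgeR). Its window is the one above with PU.1 letters on both strands. The immediate early gene Ier3 averaged 192 ± 32.7 CPM in E18.5 brain, 62.5 ± 7.48 in yolk sac, 37.9 ± 10.5 in E12.5 brain and 94.7 ± 28.8 in adult brain, also without overlap (log2 1.57, 2.30 and 0.96, adjusted p = 3.33e-06, 1.27e-08 and 0.0134, edgeR). Its adult call was lost without adult library 4 (0.0569). Rmnd1, a gene of mitochondrial translation, averaged 92.6 ± 35.1 CPM in E18.5 brain, 44.0 in yolk sac, 34.9 in E12.5 brain and 33.6 in adult brain, with the adult call lost without adult library 1 or 2 (adjusted p = 0.0554 to 0.0643, edgeR). With batch in the fit Rmnd1 did not pass against E12.5 brain (0.90, adjusted p = 0.534) or yolk sac (0.84, adjusted p = 0.101, edgeR).

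**Figure D2:**
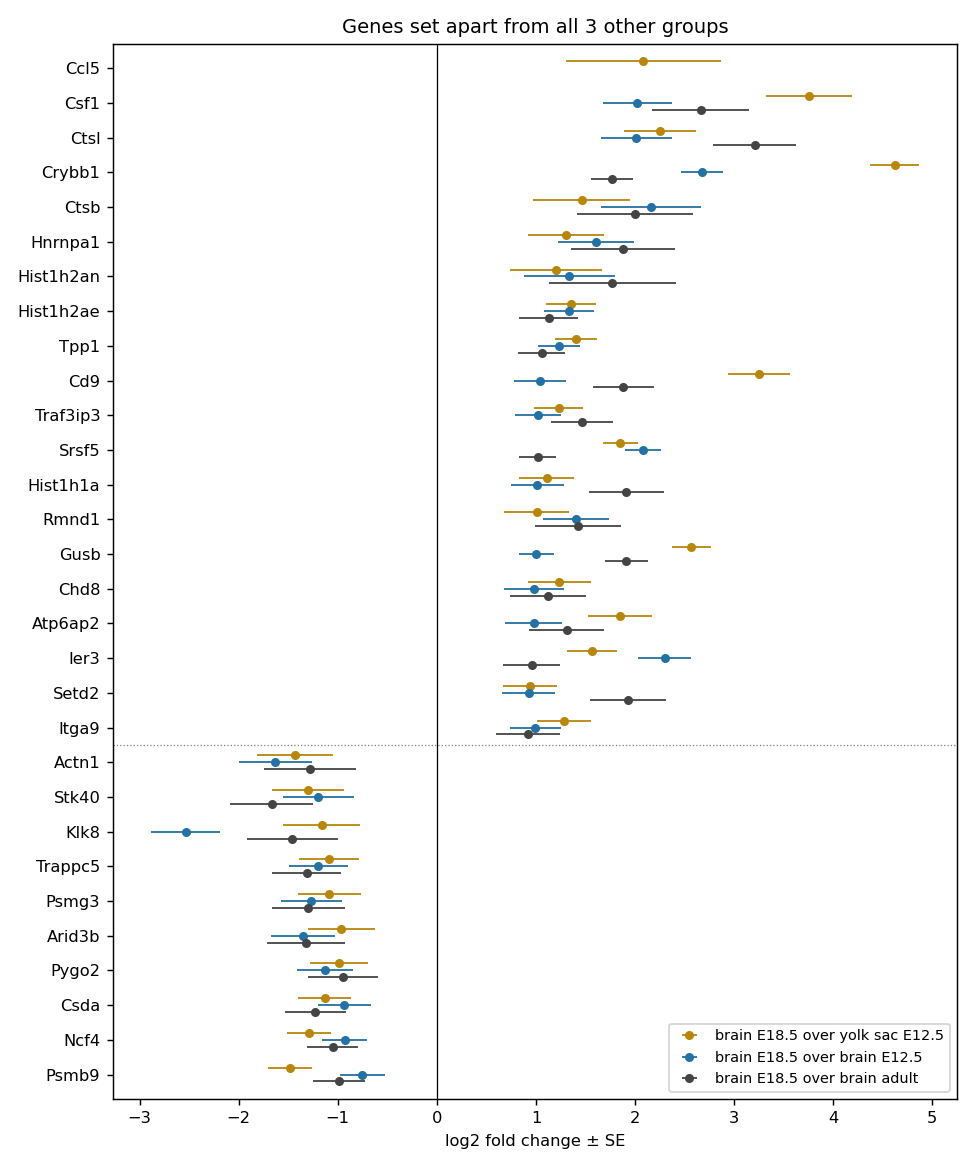
Log2 fold change ± SE (x axis, dots with bars) of brain E18.5 over yolk sac E12.5, brain E12.5 and brain adult for the 20 named genes that were higher (above the dotted line) and the 10 named genes that were lower in brain E18.5 than in all 3 groups. Csf1, Ctsl and Crybb1 are highest by the smallest of their 3 differences among genes drawn in all 3 comparisons, and for Ccl5 the yolk sac comparison alone is drawn because the other groups held 3 UMIs or fewer.

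The genes lower in E18.5 brain than in all other groups were scarcer and smaller in size. With batch in the fit all 15 kept their direction. Of these, 8 passed against yolk sac and 3 against E12.5 brain. Against adult brain, which shares the batch of E18.5, 14 passed, and the batch term does not test that difference. Ncf4, a cytosolic subunit of the NADPH oxidase, had 74.5 to 119 CPM in E18.5 libraries with a median of 85.0, against 252, 207, 249 and 171 in yolk sac, 150, 146, 223 and 193 in E12.5 brain, and 211, 231, 145 and 161 in adult brain. No libraries overlapped, and the differences were -1.29 ± 0.22, -0.93 ± 0.23 and -1.05 ± 0.26 log2 units (adjusted p = 1.1e-05, 0.00203 and 0.00272, edgeR). With batch in the fit Ncf4 did not pass against E12.5 brain (-1.09, adjusted p = 0.0796, edgeR). Psmb9, an immunoproteasome subunit, had 63.1 to 111 CPM in E18.5 libraries with a median of 83.5, against 204, 189, 220 and 289 in yolk sac, 131, 122, 137 and 175 in E12.5 brain, and 141, 165, 145 and 201 in adult brain. It too showed no overlap (log2 -1.48, -0.75 and -0.99, adjusted p = 8.62e-07, 0.0134 and 0.00576, edgeR), though the E12.5 brain call was lost without E18.5 library 4 or E12.5 brain library 4 (0.0526 to 0.0837).

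Klk8, a secreted serine protease, averaged 27.4 ± 16.5 CPM in E18.5 brain, 60.5 ± 28.4 in yolk sac, 162 ± 39.2 in E12.5 brain and 74.4 ± 23.4 in adult brain (log2 -1.16, -2.53 and -1.46, adjusted p = 0.0162, 4.7e-07 and 0.0181, edgeR). Its yolk sac call was lost without E18.5 library 5 or yolk sac library 2 (0.0683 to 0.146) and its adult call without adult library 1 (0.102). The actin cross-linker Actn1 averaged 30.4 ± 22.7 CPM in E18.5 brain, 76.3 in yolk sac, 91.0 in E12.5 brain and 69.3 in adult brain, and the cold shock protein gene Csda 76.7 ± 26.7, 162, 147 and 175 CPM. Proteasome assembly factor Psmg3 (40.3 ± 13.1 CPM in E18.5 brain, 85.5, 99.1 and 98.5 CPM in yolk sac, E12.5 brain and adult brain), the vesicle tethering subunit Trappc5 (52.4 ± 9.50, 108, 121 and 130), the DNA-binding Arid3b (35.6 ± 11.2, 67.7, 92.8 and 87.3), the Wnt cofactor Pygo2 (45.8 ± 17.7, 89.6, 102 and 86.8) and the kinase relative Stk40 (30.8 ± 12.6, 74.6, 72.3 and 98.0) completed the named genes. For Actn1 the adult call was lost without any 1 of 9 libraries (adjusted p = 0.0505 to 0.143) and for Pygo2 without any 1 of 16 (0.0519 to 0.194, edgeR); Arid3b, Csda, Psmg3, Stk40 and Trappc5 each lost a call without 1 or more single libraries as well.

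The homeostatic list showed E18.5 microglia between the younger and the adult cells. All 24 tested members were higher than in yolk sac and 20 of 24 were higher than in E12.5 brain, while 17 were lower than in adult brain and none higher. Over all genes tested, 18.2% were higher and 18.8% lower than in yolk sac. The shares were 11.1% and 13.4% against E12.5 brain, and 11.2% and 10.3% against adult brain. Counts of the lists below are to be read beside these shares. The median log2 difference of the list was 4.30, 1.05 and -0.83 against yolk sac, E12.5 brain and adult brain, beside 0.00, -0.03 and 0.03 over all genes tested. Summed over the list, the level was 50437 to 53210 CPM in E18.5 libraries, 11023 to 12422 CPM for yolk sac, 25437 to 27598 CPM for E12.5 brain and 108029 to 119809 CPM for adult brain, with no overlap.

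Members of the list stood at different distances from the adult level. Selplg, the P-selectin ligand, averaged 1513 ± 115 CPM in E18.5 brain against 10363 ± 123 in adult brain (log2 -2.81 ± 0.11, adjusted p = 2.18e-22, edgeR), with 204 in yolk sac and 801 in E12.5 brain. Tmem119, a membrane protein used as a microglia marker, averaged 1569 ± 102 CPM against 5745 ± 436 in adult brain (log2 -1.90, adjusted p = 1.31e-14). Olfml3, a secreted protein, averaged 2560 ± 332 CPM in E18.5 brain against 30.3 ± 18.3 in yolk sac (log2 6.30, adjusted p = 1.6e-23, edgeR) and 3375 ± 330 in adult brain. Fcrls averaged 5198 ± 449 CPM in E18.5 and 4833 ± 510 in adult brain, Serpine2, a protease inhibitor, 1658 ± 223 and 1161 ± 134, and the lectin Siglech 545 ± 200 and 282 ± 57.3, and none of these 3 passed against adult brain.

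Transcription factors were largely below the adult level. Of 17 tested, 6 were higher and 4 lower in E18.5 brain than in yolk sac, 3 higher and none lower than in E12.5 brain, and none higher and 12 lower than in adult brain. Sall1, which maintains microglial identity, had 260 to 524 CPM in E18.5 libraries, 120 to 166 in E12.5 brain, and 681 to 912 CPM for adult brain, against 4 UMIs in all of yolk sac. Irf5 averaged 199 CPM in E18.5 brain against 539 in adult brain (log2 -1.46, adjusted p = 1.25e-07, edgeR), while Runx1, a factor of blood cell origin, averaged 363 CPM in E18.5 and 262 in adult brain and did not pass. Of the TGF-beta pathway, 8 of 11 were higher in E18.5 brain than in yolk sac, 1 was higher than in E12.5 brain, and 7 were lower and 1 higher than in adult brain. Its receptor gene Tgfbr1 had 389 to 581 CPM in E18.5 libraries and averaged 25.5 CPM in yolk sac, 475 in E12.5 brain and 1132 in adult brain. The pathway target Pmepa1 averaged 530 ± 68.2, 25.7, 510 and 1937 CPM.

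Immediate early genes separated E18.5 and adult brain from both E12.5 groups. These genes are switched on within minutes of a stimulus, tissue handling and sorting included. Of 21 tested, 18 were higher in E18.5 brain than in yolk sac and 18 than in E12.5 brain, while 9 were lower and 1 (Ier3) higher than in adult brain. The summed level was 6380 to 7967 CPM in E18.5 libraries, 1153 to 1441 CPM for yolk sac, 994 to 1264 CPM for E12.5 brain and 11739 to 14780 CPM for adult brain. Fos averaged 1189 ± 181 CPM in E18.5 brain, 47.7 ± 26.5 in yolk sac, 6.39 ± 6.79 in E12.5 brain and 1258 ± 75.3 in adult brain, so that E18.5 and adult brain overlapped. Btg2 averaged 212 ± 60.1 CPM in E18.5 against 1173 ± 204 in adult brain (log2 -2.49, adjusted p = 3.95e-13, edgeR) and Nfkbia, the inhibitor of NF-kappaB, 156 ± 68.0 against 633 ± 165 (log2 -2.04, adjusted p = 2.77e-08, edgeR). The gate also changed between the E12.5 groups and the others, and the part of sorting in these differences was not tested.

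Chemokines and cytokines had 9 tested members, of which 4 were higher and 2 lower in E18.5 brain than in yolk sac, 6 higher than in E12.5 brain, and 6 higher and 1 lower than in adult brain. The summed level was 2821 to 3357 CPM in E18.5 brain, 4086 to 5186 CPM for yolk sac, 875 to 1136 CPM for E12.5 brain and 1146 to 1681 CPM for adult brain. The yolk sac sum was carried by Pf4, the platelet factor, which averaged 53.3 ± 38.9 CPM in E18.5 brain and 3002 ± 316 in yolk sac (log2 -5.87, adjusted p = 4.38e-09, edgeR). Tgfb1 averaged 455 CPM in E18.5 and 680 in adult brain, and Il1b had 0 UMIs at E18.5. Among 12 receptors, 8 were higher in E18.5 brain than in yolk sac and 5 than in E12.5 brain, with 2 higher and 3 lower than in adult brain. Cxcr2, a receptor for CXC chemokines, averaged 72.7 ± 21.3 CPM in E18.5 brain against 2 UMIs in adult brain, a ratio of 13.3 (exact 95% interval 3.55 to 111, counting error only).

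**Figure D3:**
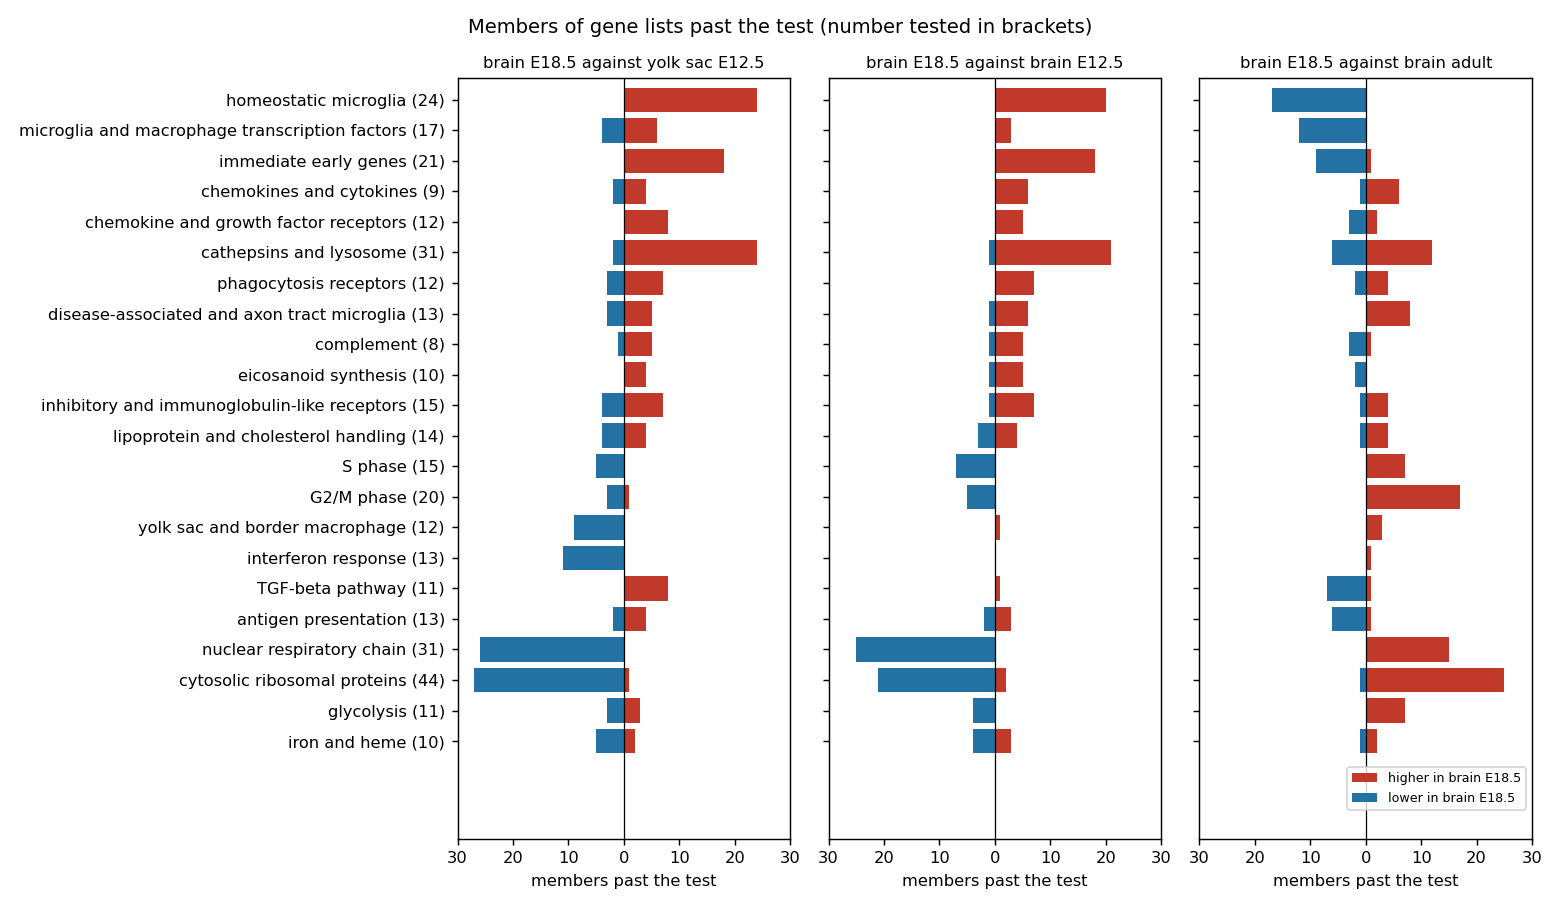
Number of tested members past the test (x axis, higher in brain E18.5 to the right, lower to the left) for 22 gene lists (rows, number tested in brackets) in the 3 comparisons. The homeostatic list is to the right against both E12.5 groups (24 and 20 of 24) and to the left against brain adult (17 of 24), and respiratory chain and ribosomal genes run the opposite way.

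The cathepsin and lysosome list as a whole was raised against both E12.5 groups and split against the adult. Of 31 tested members, 24 were higher and 2 lower in E18.5 brain than in yolk sac, 21 higher and 1 lower than in E12.5 brain, and 12 higher and 6 lower than in adult brain, with 6 higher in all 3. The medians were 1.28, 0.72 and 0.28 log2 units. Ctss had 4797, 4587, 5969, 5894, 3345 and 2406 CPM in E18.5 libraries 1 to 6, 651 to 1034 in yolk sac, 4202, 3901, 1414 and 1221 in E12.5 brain, and 1247 to 1878 in adult brain. It passed against yolk sac and adult brain (log2 2.38 and 1.53, adjusted p = 0.000138 and 0.00787, edgeR) but not against E12.5 brain (0.76, adjusted p = 0.132), where libraries overlapped. Ctsd, Cst3 and the Laptm5 row were among the 6 members lower in E18.5 than in adult brain.

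Genes reported for disease-associated and axon tract microglia were mostly higher than in adult brain: 8 of 13 tested were higher and none lower, with 6 higher and 1 lower against E12.5 brain and 5 higher and 3 lower against yolk sac. Their summed level was 18884 to 26384 CPM in E18.5 libraries and 2556 to 3809 in adult brain, with Apoe as the largest part. Csf1, Cd9 and Cd63 were the 3 members higher in all comparisons. Spp1, osteopontin, had 128, 271, 334, 338, 9.19 and 16.6 CPM in E18.5 libraries 1 to 6, against 7.40, 14.5, 55.0 and 77.9 in yolk sac, 18.2, 0, 0 and 4.38 in E12.5 brain, and 0, 0, 10.4 and 0 in adult brain. The libraries of plate 7 lay with the other groups. The difference from E12.5 brain was 4.66 ± 1.10 (adjusted p = 0.00619, edgeR), and adult brain held 1 UMI, for a ratio of 61.2 (exact 95% interval 10.8 to 2429). The adult call (adjusted p = 0.0364) was lost without any 1 of 7 libraries, E18.5 libraries 2 to 4 or any adult one (0.0524 to 0.0992). In E18.5 brain 180 UMIs of Spp1 lay in 48 cells, 60% of them in 5 cells.

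Phagocytosis and receptor genes moved in both directions against yolk sac and adult brain, and nearly all calls against E12.5 brain were upward. Over all genes tested, 11.1% were higher and 13.4% lower than in E12.5 brain. Of 12 phagocytosis receptors and ligands, 7 were higher and 3 lower in E18.5 brain than in yolk sac, 7 higher than in E12.5 brain, and 4 higher and 2 lower than in adult brain. Mertk, which recognises dying cells through the bridging ligand Gas6, averaged 107 ± 42.0 CPM in E18.5 brain, 8.44 in yolk sac, 19.5 in E12.5 brain and 168 in adult brain, and Gas6 itself 1177 ± 143, 2154, 579 and 407 CPM. Of 15 inhibitory and immunoglobulin-like receptors, 7 were higher and 4 lower than in yolk sac, 7 higher and 1 lower than in E12.5 brain, and 4 higher and 1 lower than in adult brain. Fcgr3, an activating Fc receptor, averaged 1743 ± 454 CPM in E18.5 against 375 ± 29.6 in adult brain (log2 2.18, adjusted p = 0.000124, edgeR), and its signalling chain Fcer1g 2612 ± 245 against 890 ± 239 (log2 1.51, adjusted p = 6.89e-10, edgeR). Cd52, a small glycoprotein of leukocytes, was lower in E18.5 than in E12.5 brain, at 878 ± 61.2 against 2791 ± 329 CPM (log2 -1.68, adjusted p = 4.52e-12, edgeR). Of 8 complement genes 5 were higher than in each E12.5 group, with 1 lower in each, and 1 was higher and 3 lower than in adult brain. Of 10 eicosanoid genes 4 were higher than in yolk sac, 5 higher and 1 lower than in E12.5 brain, and 2 lower than in adult brain; Ptgs1, a cyclooxygenase, averaged 516 ± 89.2 CPM in E18.5 against 46.8 ± 16.4 in yolk sac (log2 3.40, adjusted p = 1.69e-13, edgeR).

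Genes of yolk sac and border macrophages and of the interferon response were mostly lower in E18.5 brain than in yolk sac. Of 12 tested genes of the first list, 9 were lower in E18.5 brain than in yolk sac and none higher, with 1 higher than in E12.5 brain and 3 higher than in adult brain. F13a1, a clotting factor subunit, averaged 22.3 ± 18.1 CPM in E18.5 brain and 458 ± 186 in yolk sac (log2 -4.46, adjusted p = 7.82e-05, edgeR), and Clec10a, a lectin of tissue macrophages, had 1 UMI at E18.5 against a mean of 355 CPM in yolk sac. Dab2, an adaptor of endocytosis, averaged 152 ± 37.0 CPM in E18.5 brain, 1163 ± 186 in yolk sac and 20.9 ± 18.9 in adult brain, where the difference was 2.89 log2 units (adjusted p = 9.55e-06, edgeR). Of 13 tested interferon genes, 11 were lower in E18.5 brain than in yolk sac, none passed against E12.5 brain, and Ly6e was higher than in adult brain (2225 ± 973 against 444 ± 79.7 CPM, log2 2.29, adjusted p = 0.00915, edgeR). Ifitm2, an antiviral membrane protein, averaged 34.4 ± 22.0 CPM in E18.5 brain and 1045 ± 144 in yolk sac (log2 -5.00, adjusted p = 1.92e-18, edgeR).

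Genes of energy and protein synthesis lay between E12.5 and adult levels. Of 31 nuclear genes of the respiratory chain, 26 were lower in E18.5 brain than in yolk sac, 25 lower than in E12.5 brain and 15 higher than in adult brain, with none the other way. Cox6b1, a cytochrome c oxidase subunit, averaged 391 ± 40.7 CPM in E18.5 brain, 954 ± 60.5 in yolk sac, 674 ± 115 in E12.5 brain and 98.4 ± 56.2 in adult brain. Of 44 ribosomal protein genes, 27 were lower and 1 higher than in yolk sac, 21 lower and 2 higher than in E12.5 brain, and 25 higher and 1 lower than in adult brain. Rps26 averaged 754 ± 104 CPM in E18.5 brain, 3098 ± 1729 in yolk sac, 3126 ± 948 in E12.5 brain and 171 ± 62.8 in adult brain. Ribosomal protein genes have many processed copies, so single members are uncertain. E18.5 cells also lay between E12.5 and adult cells in median UMIs per cell, as given above, and the part of depth in these lists was not tested. Glycolysis genes shared the direction against adult brain, with 7 of 11 higher and none lower, and Pkm2, the pyruvate kinase, averaged 1054 ± 89.2 CPM in E18.5 against 262 ± 100 in adult brain (log2 1.97, adjusted p = 3.13e-10, edgeR). Ldhb, a lactate dehydrogenase chain, averaged 372 ± 42.7 CPM in E18.5 brain and 14.5 ± 16.2 in yolk sac (log2 4.61, adjusted p = 3.06e-15, edgeR).

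Lipid handling and antigen presentation genes went in both directions. Against adult brain, more of the first list were higher and more of the second lower. Of all genes, 18.2% were higher and 18.8% lower than in yolk sac, and 11.1% and 13.4% than in E12.5 brain. Against adult brain the shares were 11.2% and 10.3%. Counts near these shares do not set a list apart. Of 14 lipoprotein and cholesterol genes, 4 were higher and 4 lower in E18.5 brain than in yolk sac, 4 higher and 3 lower than in E12.5 brain, and 4 higher and 1 lower than in adult brain. Their median log2 differences were -0.03, 0.21 and 0.91 in the same order. Lpcat2, an acyltransferase of phospholipid synthesis, averaged 1096 ± 54.2 CPM in E18.5 brain, 93.8 ± 43.6 in yolk sac, 502 ± 140 in E12.5 brain and 1625 ± 233 in adult brain, with no overlap. Abcg1, a cholesterol exporter, averaged 400 ± 52.5 CPM in E18.5 brain and 39.1 ± 3.07 in yolk sac (log2 3.29, adjusted p = 3.59e-15, edgeR). Of 13 antigen presentation genes, 4 were higher and 2 lower than in yolk sac, 3 higher and 2 lower than in E12.5 brain, and 1 higher and 6 lower than in adult brain. The medians of this list were -0.17, 0.13 and -0.83 log2 units. H2-DMa, a chaperone chain of class II loading, averaged 180 ± 61.4 CPM in E18.5 brain, 31.6 ± 11.5 in yolk sac, 262 ± 23.4 in E12.5 brain and 519 ± 114 in adult brain (log2 -1.55 against adult brain, adjusted p = 1.53e-06, edgeR).

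Cycling genes were still read at E18.5. Of 20 tested G2/M genes, 17 were higher in E18.5 than in adult brain and none lower, 5 were lower than in E12.5 brain, and 3 were lower and 1 higher than in yolk sac. Of 15 S phase genes, 7 were higher than in adult brain, 7 lower than in E12.5 brain and 5 lower than in yolk sac. The spindle factor Tpx2 averaged 80.9 ± 34.0 CPM in E18.5 brain against 0 UMIs in adult brain, at least 9.74-fold higher at that floor. Mki67, a marker of cycling cells, averaged 119 ± 59.5 CPM in E18.5 brain against 41.1 ± 18.3 in yolk sac (log2 1.46, adjusted p = 0.00361, edgeR). It averaged 57.1 ± 36.0 CPM in E12.5 brain, so it did not share the direction of the lists there. E18.5 library 3 held 233 CPM of Mki67, against 69.5 to 122 in the others. The replication licensing factor Mcm2 averaged 61.8 ± 37.4 CPM in E18.5 against 143 ± 14.8 in E12.5 brain (log2 -1.23, adjusted p = 0.00182, edgeR).

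The share of cells with at least 2 UMIs of 54 cell-cycle rows, after thinning every cell to 300 UMIs, was 22.0, 23.9, 30.3, 17.2, 23.9 and 15.3% in E18.5 libraries 1 to 6. It was 23.8, 22.9, 26.9 and 26.0% in yolk sac, 30.8, 32.6, 28.5 and 41.4% in E12.5 brain, and 6.13, 4.43, 9.82 and 2.72% in adult brain. E18.5 libraries lay above all adult ones and overlapped both E12.5 groups. The mean of 22.1 ± 5.38% at E18.5 (SD, n = 6) was 16.3 percentage points above adult brain (exact permutation test, two-sided, p = 0.00952, adjusted over 3 comparisons p = 0.0286) and 11.2 points below E12.5 brain (difference -11.2, exact p = 0.0190, adjusted 0.0286). Against yolk sac the difference was -2.83 points (exact p = 0.371). The E12.5 brain difference did not pass with at least 3 UMIs (-5.72 points, adjusted exact p = 0.1) or without E12.5 brain library 1, 2 or 4 (adjusted exact p = 0.0714, with -12.1, -11.5 and -8.55 points). Without thinning the shares were 50.2% in E18.5 brain, 67.9% in yolk sac, 83.1% in E12.5 brain and 14.9% in adult brain. A share of phase transcripts does not by itself show that a cell divides.

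The 3 plates of E18.5 brain differed in 79 of 4003 genes tested among them (1.97%, edgeR, adjusted p under 0.05). Plate 7 was lowest for 62 and plate 6 highest for 57 of the 79, and 10 of them encode ribosomal proteins. Ly86, a partner of the receptor CD180, averaged 1164 CPM on plate 5, 2408 on plate 6 and 633 on plate 7, and Ly6e 2571, 3042 and 1064 CPM. Spp1 averaged 199, 336 and 12.9 CPM and Ctss 4692, 5932 and 2876 CPM on the same plates. Among the 43 genes higher than in all other groups, 4 differed by plate. Ctsl averaged 3089, 3247 and 1981 CPM on plates 5, 6 and 7, Cd9 1389, 1329 and 801, the row of Ang and Rnase4 1504, 1597 and 1092, and Crybb1, with the opposite order, 3168, 2315 and 3819 CPM. The chemokine Cxcl10 averaged 70.5 and 61.9 CPM on plates 5 and 6 and had 0 UMIs on plate 7. Leaving out plate 5, 6 or 7 kept 31, 29 or 35 of the 43 genes.

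**Figure D4:**
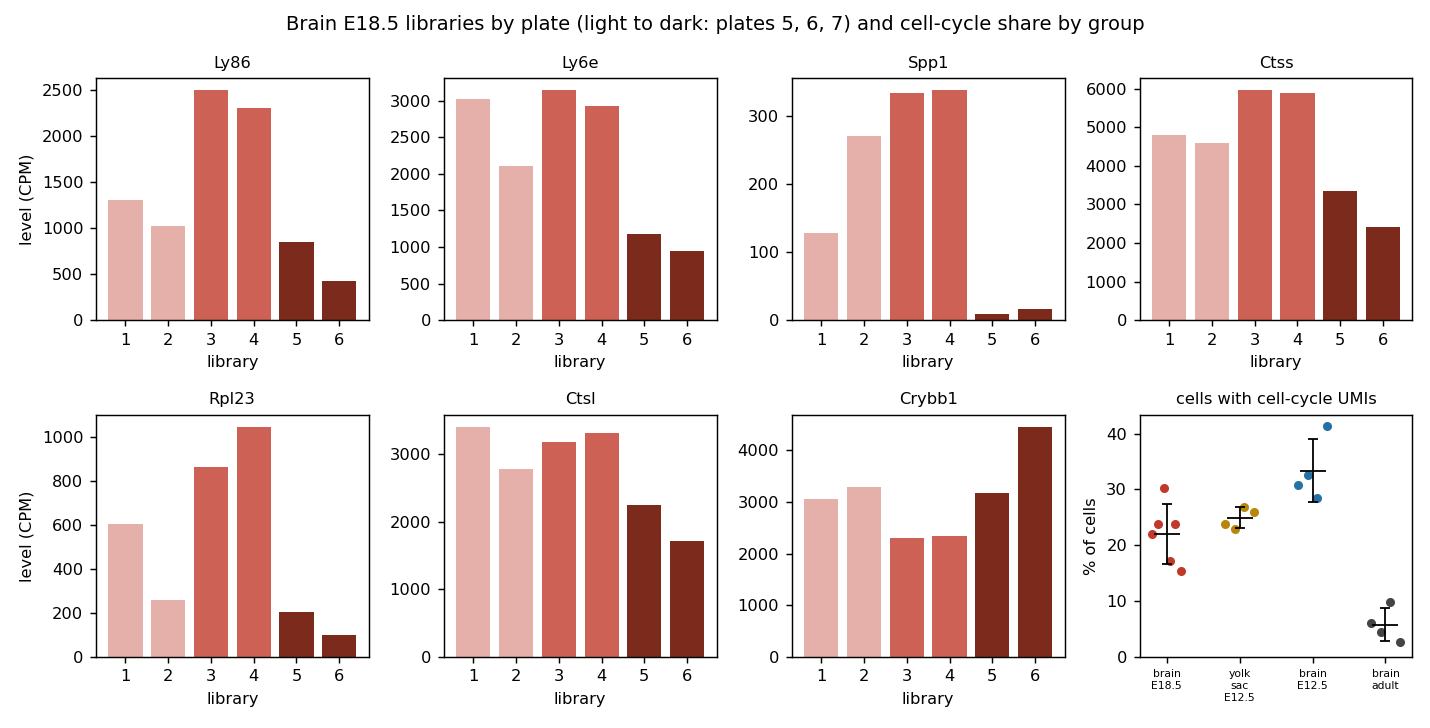
The first 7 panels show the level in CPM (y axis from 0) of a gene in brain E18.5 libraries 1 to 6, one bar per library, shaded by plate; Spp1 and Ctss are lowest on plate 7 and Crybb1 is lowest on plate 6. The last panel shows the percentage of cells with cell-cycle UMIs per library (dots) with mean ± SD (bars) in the 4 groups, with brain E18.5 above brain adult.

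Variation between cells was measured for the genes with enough UMIs. Cells were thinned to 500 UMIs, which left 911 of 992 cells, and the variance over cells was divided by the mean in each library, a ratio of 1 being the noise of counting alone. Over the 867 genes with at least 0.1 UMIs per thinned cell the median ratio was 1.11, and it was above 1.5 for 25 genes and above 2 for 8. The ratio grows with the mean count, so that a value near 1 for a scarce gene does not show that cells are alike. The 15 most variable genes held Apoe, Ctsd, Cst3 and Ftl1 of the abundant genes, the chemokine rows of Ccl3 and Ccl4, the protease Ctsl, 3 histone rows, Fos, the matrix protein Sparc, the nuclear RNA Malat1, the fatty acid receptor Gpr84 and the globin row Beta-s. The 15th gene had a ratio of 1.72 and the next one 1.70.

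Apoe was the most variable gene, with a ratio of 6.62 ± 1.84 (SD over 6 libraries, 3.88 to 8.49). Its thinned counts ran from 0 in 4 cells over quartiles of 5, 8 and 12 to 60 UMIs in the highest cell, so that nearly all cells had it (99.6%) at very different levels. At 300 UMIs the ratio was 4.50 in E18.5 brain, 3.19 in yolk sac, 3.66 in E12.5 brain and 2.30 in adult brain, at means of 6.08, 7.24, 5.71 and 0.403 UMIs per thinned cell in the same groups, so the ratios are not at one level of expression. The empty wells held 7 UMIs of Apoe in 5 of 12 wells. Ctsd (2.58 ± 0.26), Cst3 (1.83) and Ftl1 (1.87) were likewise found in 98.2, 99.5 and 92.2% of thinned cells.

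Chemokine transcripts were read in a smaller share of the cells. The Ccl3 row (ratio 2.33 ± 0.67) had a UMI in 35.2% of thinned cells and up to 11 in a cell, with 54.8% of its UMIs in the 10% of cells with most. The Ccl4 row (2.76 ± 1.57) had a UMI in 6.81% of thinned cells and up to 8 in a cell. Ccl3 and Ccl4 UMIs occurred together in 36 cells, Ccl3 alone in 285 and Ccl4 alone in 26, so that 58.1% of cells with Ccl4 also had Ccl3, against 33.6% of cells without. Their rank correlation over cells within a library averaged 0.16 (-0.04 to 0.36 over 6 libraries), which is weak. The median cell had 1 UMI of all chemokine and cytokine genes, and 32.1% of cells had none.

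Among the markers the share of cells ran from few to most. Ctsl (2.09 ± 0.35) had a UMI in 61.8% of thinned cells and up to 13 in a cell, with 39.3% of its UMIs in the 10% of cells with most. Crybb1 had a UMI in 71.4% of thinned cells (61.4 to 81.0% by library), Ltc4s in 38.2%, Lag3 in 22.2% and Ccl2 in 3.29%, with 25.3% of the unthinned UMIs of Ccl2 in 5 cells. Cd9 had a UMI in 35.9%, Ctsb in 23.7%, Csf1 in 7.68% and Spp1 in 2.74%. At this depth a cell without a UMI may still hold the transcript.

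Histone and globin genes were read in part of the cells. Hist1h1b (2.78 ± 0.70) had a UMI in 9.44% of thinned cells and Hist1h2ae (1.98) in 8.45%, and the rank correlation of these genes over cells averaged 0.36 (0.10 to 0.57 over 6 libraries). The row of Hist1h2be and Hist1h1e (1.88) had a UMI in 24.4% of thinned cells, and its correlation with Hist1h1b averaged 0.35 (0.23 to 0.43). Of 405 UMIs of the globin row Beta-s (6.04 ± 9.51) before thinning, 344 were in library 6 and 56 in library 4, and 67.7% were in 5 cells. Its ratio was 20.3 in library 6, 1.86 in library 4, 1.00 in libraries 1 and 5 and could not be computed in libraries 2 and 3, so that the mean was 1.29 without library 6. Cst3 and Sparc correlated at 0.33 (0.28 to 0.38), Apoe and Ctsd at 0.27 (0.18 to 0.33), and Ctsd and Ftl1 at 0.27 (0.08 to 0.48), all as means over libraries of thinned counts that share 1 total per cell. Interferon genes summed to 2.07, 1.47, 2.19 and 1.95 UMIs per thinned cell in libraries 1 to 4 and to 0.832 and 0.719 in libraries 5 and 6 of plate 7.

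**Figure D5:**
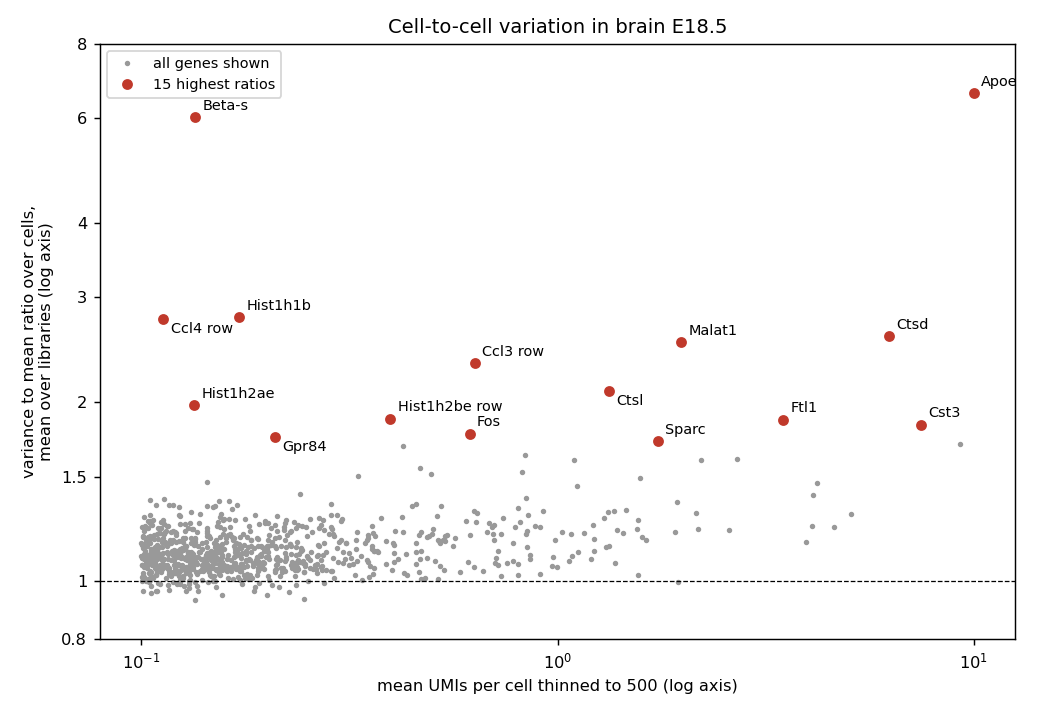
Variance to mean ratio over cells (y axis, log scale, mean over the libraries with a UMI of the gene) against mean UMIs per cell thinned to 500 (x axis, log scale) for the 867 genes of brain E18.5, with the 15 highest ratios named and the dashed line at counting noise. Apoe is highest at 6.62, Beta-s at 6.04 rests on library 6 (1.29 without it), and the median gene lies at 1.11.

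Across all 18 libraries, the genes whose level on the log2(CPM + 1) scale was most like that of each marker were the Syngr2 row, Fcrls and Ctsf for Crybb1 (Pearson r = 0.97, 0.93 and 0.92) and the Ccl3 row, Traf3ip3 and BC024571 for Ctsl (0.89, 0.89 and 0.87). For Lag3 they were Pld4, C1qb and Rhob (0.98, 0.98 and 0.97), for Ltc4s the Junb row, C1qc and C1qb (0.97, 0.96 and 0.96), and for Ccl2 Sdc4, Ccl9 and Cmtm3 (0.93, 0.82 and 0.79). The libraries fall into the 4 groups, so these values describe how alike the group levels are.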

How the data were processed

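MARS-seq libraries of sorted mouse cells were grouped by tissue and stage from the labels. The authors deposited UMI counts per gene and well, whole numbers that are not normalized. Per the submitters' processing notes, bcl2fastq 2.15.0.4 and build mm9 were used, while aligner, annotation and the way UMIs were collapsed were not given in the sources used here. Of 27297 gene rows, 2109 carry more than 1 symbol and are called rows in the text.

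Counts of wells with 1 sorted cell and at least 300 UMIs were summed per library, since cells are not replicates. Doublets were not called, since 1 cell was sorted per well. All 18 libraries entered 1 edgeR 4.0.16 fit (limma 3.58.1, R 4.3.3) with TMM factors, filterByExpr and a robust quasi-likelihood test, adjusted by Benjamini-Hochberg over 4883 genes and tested on simulated data. The depth of 143876 to 217647 UMIs per E18.5 library limits genes of few counts, and intervals and floors cover counting error only. Other values used Python 3.11.15 with numpy 2.4.6, pandas 2.3.3 and scipy 1.17.1. Cells were thinned with a fixed seed. DESeq2 1.42.0, no filter, other scaling, plate sums, a batch term and left-out libraries were tried as alternatives.

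Members and lists were chosen with earlier results of these data known. Named were the markers and gate genes, the 15 most abundant, the 20 largest higher and 10 largest lower genes of single symbol with a mean of at least 50 CPM (for lower genes in each other group), without numbered, hemoglobin, mitochondrial and ribosomal genes, the 15 most variable, up to 3 passing members and 1 other per list, and the 3 genes most like each marker. Arsb, Man2b1, Cd63, Ccl6, Il1b, Ly86, Cxcl10, the Ang and Rnase4 row and defining markers of other cell types at 0 UMIs were chosen after their values were seen. A few rule-named genes are not reported here.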

Additional observations from a re-analysis of the deposited data

Results flagged for a closer look

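Of 312 sets of library values checked, 16 (5.13%) held a library far from the others of its group, where chance alone gives about 1 in 20. In E18.5 brain these were, in CPM, Cd63 in library 1 (786), Fads1 (259) and Mki67 (233) in library 3, Clec10a (4.59) in library 5 and Gp9 (127) in library 6, each the highest of the 6. In yolk sac they were Gp9 (36.3) in library 2 and the Ccl4 row (113), Chd8 (104) and Lag3 (38.8) in library 3, each the highest, and Pmepa1 (14.8) in library 1, the lowest. In E12.5 brain they were Ccl2 (14.2) in library 1, Ccl5 (12.9) in library 3 and Ccl6 (219) in library 4, each the highest, and Mcm2 (121) in library 1, the lowest. In adult brain they were C1qc (11232) and Spp1 (10.4) in library 3, both the highest, and the value of Spp1 rests on 1 UMI.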

How the results depend on the processing

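No paired analysis was possible because replicate numbers were given in accession order and pair no libraries. Of 208 differences of genes chosen for the text that passed, 77 no longer passed under at least 1 alternative and 32 without some single library. The cut at a log2 change of at least 1 is not counted in the 77, and 46 of the 208 fell short of it. Against E12.5 brain, higher, lower and all genes numbered 352, 308 and 660 with plate sums, 340, 293 and 633 with libraries thinned to 74562 UMIs, 148, 184 and 332 with a batch term, and 329, 242 and 571 at a log2 change of at least 1, with 417 lower without plate 6. Against adult brain, 291 were lower and 698 differed with plate sums, 356 were higher after thinning, and 323 were lower at log2 of at least 1. Against yolk sac, 523, 465 and 988 passed after thinning, and at log2 of at least 1 there were 467 lower and 1116 in all. Genes higher and lower than in all 3 groups numbered 19 and 2 with plate sums, 22 and 2 with a batch term, 66 and 6 in fits of 2 groups, and 20 and 6 at log2 of at least 1; lower ones numbered 9 without a filter, 4 after thinning, and 8 and 7 without plates 5 and 7 (alternatives chosen after seeing the data). With 1 library left out, E12.5 brain gave 483 to 614 higher, 445 to 682 lower and 930 to 1233 in all, adult brain 467 to 576, 398 to 510 and 876 to 1085, yolk sac 820 to 948, 763 to 948 and 1599 to 1865, and all 3 groups 37 to 53 higher and 8 to 14 lower. The cell-cycle differences were then -12.9 to -8.55 points for E12.5 brain, 14.7 to 17.7 for adult brain and -4.47 to -1.47 for yolk sac, and -5.72 for E12.5 brain at 3 UMIs or more. Among differences that did not pass, sign turned for Ccl2 against yolk sac (-0.473 to 0.0824 with 1 library left out, the highest without yolk sac library 3) and Ltc4s against adult brain (0.10 without a filter, 0.0533 at 500 UMIs or more, 0.0088 without plate 6, and -0.105 to 0.0015 with 1 library left out, the highest without adult library 2). The cause was not tested. Thinning to the depth of the shallowest library shows how far depth limits the counts.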
